A study of Homo sapiens with 12 samples.

Results

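The genes described here are the 10 dimer-forming genes of the AP-1 family named JUN, JUNB, JUND, FOS, FOSB, FOSL1, FOSL2, BATF3, ATF3 and JDP2. They were chosen by symbol and are 10 of the 58721 genes in the count table. All 10 passed the filter on low counts that left 21013 genes for testing. The libraries come from EW8 and TC71, both cell lines of Ewing sarcoma, a bone and soft-tissue tumor driven by a fusion oncogene. In every group, vehicle included, the cells carried a selected lentiviral Tet-On pair: the Tet3G transactivator under the human EF1 alpha promoter, and a TRE3G-driven transcript that holds c-Jun and c-Fos joined by a self-cleaving peptide sequence. Per the labels, each line was given either vehicle (DMSO) or doxycycline at 2000 ng/ml for 72 h, which makes 4 groups of 3 libraries.

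Several limits apply to all values. Reads from the c-Jun and c-Fos transgenes fall into the JUN and FOS counts, so transgene and endogenous transcripts were not told apart. Lines given doxycycline without the transgenes were not analysed here, so the drug and the induced proteins cannot be told apart as the source of a change. Labels do not say whether replicates were separate cultures, and the p-values measure the spread between these libraries, which may be technical. Total counts per library ran from 42860665 to 60853649, with both mates of a pair counted. In these bulk samples, a change in the number of expressing cells and a change in RNA per cell cannot be told apart.

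AP-1 is not a single protein but a family of dimers. Jun proteins can pair with each other or with Fos proteins through a leucine zipper, whereas Fos proteins need a Jun partner to bind DNA. JUN and FOS are strong activators, JUNB and JUND are usually milder ones, and FOSL1 (Fra-1) and FOSL2 (Fra-2) lack the strong activation domain of FOS. BATF3, ATF3 and JDP2 are smaller basic leucine zipper proteins that also dimerize with Jun, and JDP2 and ATF3 often act as repressors. Which dimers can form therefore depends on how much of each subunit is present, and the RNA shares given here describe that supply at the level of transcripts only.

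The dimers recognize short DNA sequences that also occur near some of their own genes. The letters TGACTCA are the classical AP-1 site, TGACGTCA is the cyclic AMP response element bound by ATF-containing dimers, and TGACATCA is a variant of the latter. A search on both strands covered the promoter windows of RefSeq (assembly GRCh38.p14), each with 250 bases before and 50 bases after the annotated start. Of the 10 genes, 8 had an entry, with 11 windows in all; BATF3 and FOSL1 had no entry. In these windows TGACTCA was found in FOSL2 only, TGACATCA in JUN and in 1 of the ATF3 windows, and TGACGTCA in JUND only. Over all 35116 windows, 4.95% held TGACTCA, 1.85% held TGACGTCA and 2.61% held TGACATCA. The 4 windows with a match are shown 5′ to 3′ on the strand of the gene, with the match in capitals. A match is a description of letters and does not show that a protein binds there.
FOSL2, chr2:28392608-28392907, plus strand: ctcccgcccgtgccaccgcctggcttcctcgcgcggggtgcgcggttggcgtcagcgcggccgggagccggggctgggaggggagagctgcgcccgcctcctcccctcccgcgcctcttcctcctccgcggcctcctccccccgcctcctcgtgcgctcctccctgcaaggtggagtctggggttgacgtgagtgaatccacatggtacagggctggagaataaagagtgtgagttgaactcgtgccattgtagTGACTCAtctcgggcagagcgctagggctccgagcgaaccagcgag
JUN, chr1:58783998-58784297, minus strand: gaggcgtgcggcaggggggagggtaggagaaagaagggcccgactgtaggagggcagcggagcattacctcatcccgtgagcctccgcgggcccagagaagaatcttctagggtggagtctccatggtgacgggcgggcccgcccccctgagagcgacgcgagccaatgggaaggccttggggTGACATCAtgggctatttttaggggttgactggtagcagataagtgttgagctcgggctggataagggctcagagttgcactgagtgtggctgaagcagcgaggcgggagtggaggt
ATF3, chr1:212565157-212565456, plus strand: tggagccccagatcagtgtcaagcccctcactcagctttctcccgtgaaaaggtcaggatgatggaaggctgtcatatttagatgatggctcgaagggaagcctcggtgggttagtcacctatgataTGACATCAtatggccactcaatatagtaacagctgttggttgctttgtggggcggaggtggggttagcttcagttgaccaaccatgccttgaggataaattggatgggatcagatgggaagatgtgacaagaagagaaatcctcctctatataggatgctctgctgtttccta
JUND, chr19:18281573-18281872, minus strand: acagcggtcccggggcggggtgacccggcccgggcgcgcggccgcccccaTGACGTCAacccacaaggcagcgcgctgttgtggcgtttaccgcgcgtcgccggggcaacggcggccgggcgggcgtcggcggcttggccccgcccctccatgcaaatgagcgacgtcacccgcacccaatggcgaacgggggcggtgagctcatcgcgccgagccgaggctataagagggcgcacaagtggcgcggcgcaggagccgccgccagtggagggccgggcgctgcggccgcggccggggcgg

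The matches do not lie at a common place. The start sites are those of RefSeq and need not match the gene coordinates of the count table given below. The JUN and FOSL2 windows lie wholly inside those coordinates. Counted from the start site, the match began at 5 in FOSL2, at -67 in JUN, at -123 in ATF3 and at -200 in JUND, where negative positions lie before the start. These 4 genes also differed in how they moved with doxycycline, as the levels show.

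Levels are given as CPM per kilobase, which is the read count scaled to library size by TMM (trimmed mean of M-values), as CPM, divided by the merged exon length of the gene in kilobases. On this scale genes of different length can be set side by side. The median over all tested genes was 2 in EW8 with vehicle, 2.18 in EW8 with doxycycline, 1.85 in TC71 with vehicle and 2.12 in TC71 with doxycycline. All 10 are protein-coding genes, and their coordinates are those of hg38 in the count table. Libraries of the same group are listed in the order of replicates 1, 2 and 3. Changes are log2 fold changes from the edgeR quasi-likelihood test over all 12 libraries, with Benjamini-Hochberg adjusted p. The call required both a log2 fold change beyond 1 in either direction and an adjusted p below 0.05.

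**Figure D1:**
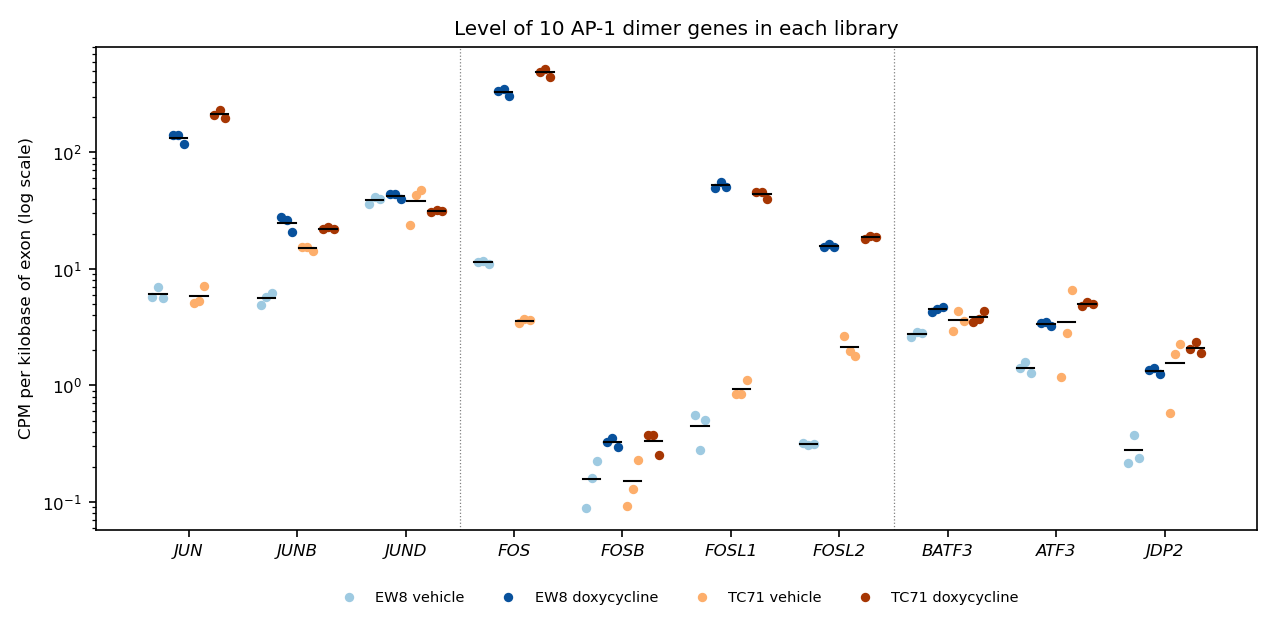
Level of the 10 genes in each of the 12 libraries, in CPM per kilobase of exon on a log axis, with points for libraries, black bars for group means of 3 libraries, and dotted lines between Jun, Fos and partner genes. FOS, JUN, FOSL1 and FOSL2 lie far higher with doxycycline in both lines, JUND stays near 40 in EW8 and FOSB is the lowest gene in every group.

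Among the Fos genes, FOS, FOSL1 and FOSL2 rose in both lines, and the endogenous FOSL1 rose by a larger factor in EW8 than FOS itself, which counts the transgene. FOS (ENSG00000170345.9, chr14:75278774-75282230, plus strand) stood at 11.4, 11.6 and 11.1 CPM per kilobase in EW8 with vehicle and at 339, 352 and 308 with doxycycline. In TC71 it stood at 3.46, 3.72 and 3.63 with vehicle and at 495, 521 and 448 with doxycycline. Every doxycycline library lay above every vehicle library, and TC71 had the lower FOS level with vehicle and the higher with doxycycline. FOS changed by a log2 of 4.87 (adjusted p 4.23e-19, SE 0.07) in EW8 and 7.08 (adjusted p 9.35e-21, SE 0.08) in TC71.

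FOSL1 (ENSG00000175592.8, chr11:65892049-65900573, minus strand), which codes for Fra-1, was in the lower part of the tested genes in EW8 with vehicle, at 0.562, 0.277 and 0.505 CPM per kilobase. With doxycycline it reached 50, 56 and 50.9, a log2 fold change of 6.86 (adjusted p 1.66e-16, SE 0.15). In TC71 it went from 0.85, 0.845 and 1.12 to 45.7, 45.8 and 39.5, a log2 fold change of 5.54 (adjusted p 3.69e-16, SE 0.14). The lines started 2.07-fold apart and the groups did not overlap at any point. FOSL1 went from the 29.9th to the 95.9th percentile of tested genes in EW8 and from the 41.5th to the 94.8th in TC71.

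FOSL2 (ENSG00000075426.11, chr2:28392448-28417312, plus strand), which codes for Fra-2, differed clearly between the lines before induction. With vehicle it stood at 0.318, 0.311 and 0.316 CPM per kilobase in EW8 and at 2.64, 1.97 and 1.78 in TC71. With doxycycline it stood at 15.3, 16.4 and 15.3 in EW8 and at 18.1, 19.2 and 18.8 in TC71. The rise was 5.64 on the log2 scale (adjusted p 1.7e-16, SE 0.13) in EW8 and 3.13 (adjusted p 2.4e-14, SE 0.1) in TC71. The FOSL2 groups thus differed 6.75-fold between lines with vehicle and 1.19-fold with doxycycline.

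FOSB (ENSG00000125740.13, chr19:45467995-45475179, plus strand) was scarce throughout, with 22 to 102 reads per library. In EW8 it stood at 0.0894, 0.161 and 0.226 CPM per kilobase with vehicle and at 0.329, 0.356 and 0.296 with doxycycline. In TC71 it went from 0.0928, 0.128 and 0.231 to 0.375, 0.379 and 0.254. Both lines passed the call, by 1.03 on the log2 scale (adjusted p 0.034, SE 0.38) in EW8 and 1.16 (adjusted p 0.0175, SE 0.38) in TC71. Those calls are fragile. In EW8, 6 of 21 alternatives moved FOSB below the threshold, and the log2 fold change was 0.75 without EW8 vehicle replicate 1. In TC71, 4 of 21 alternatives did so, among them leaving out TC71 vehicle replicate 1, at 0.83, or replicate 2, at 1.05 (adjusted p 0.0595).

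Among the Jun genes, JUN rose in both lines, JUNB passed the call in EW8 only, and JUND was called in neither line. JUN (ENSG00000177606.6, chr1:58780788-58784327, minus strand) stood at 5.75, 6.94 and 5.6 CPM per kilobase in EW8 with vehicle and at 142, 139.9 and 119 with doxycycline. In TC71 it went from 5.1, 5.32 and 7.16 to 211, 229.8 and 199. The lines had overlapping JUN levels with vehicle and separate ones with doxycycline, where TC71 was 1.59-fold higher. The log2 fold changes were 4.46 (adjusted p 1.93e-15, SE 0.12) in EW8 and 5.19 (adjusted p 2.36e-16, SE 0.13) in TC71.

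JUNB (ENSG00000171223.5, chr19:12791496-12793315, plus strand) went from 4.92, 5.76 and 6.19 CPM per kilobase to 27.9, 26.1 and 20.6 in EW8, a log2 fold change of 2.14 (adjusted p 1.69e-11, SE 0.11). In TC71 it went from 15.5, 15.3 and 14.2 to 22, 22.8 and 21.9, a log2 fold change of 0.57 (adjusted p 2e-04, SE 0.1) that is under the fold limit. TC71 with vehicle already held JUNB at 2.66 times the EW8 level, and the lines overlapped with doxycycline. Of the JUNB exons, 14.23% (259 bases) overlap HOOK2 on the opposite strand, and reads there were left out of the counts.

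JUND (ENSG00000130522.5, chr19:18279760-18281622, minus strand) was the most abundant of the 10 genes in both lines with vehicle. It stood at 36, 41.6 and 40 CPM per kilobase in EW8 with vehicle and at 43.6, 44.2 and 39.8 with doxycycline. The EW8 groups overlapped and the log2 fold change was 0.12 (95% interval -0.22 to 0.45, adjusted p 0.601). In TC71 it stood at 23.7, 43.4 and 47.8 with vehicle and at 30.6, 31.8 and 31.6 with doxycycline. Replicate 1 was the low library there. The TC71 log2 fold change was -0.29 (adjusted p 0.159), and -0.62 (adjusted p 3.46e-08) without that replicate, still inside the fold limit.

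Of the partner genes, ATF3 and JDP2 were called higher in EW8, and none of the 3 passed the test in TC71. ATF3 (ENSG00000162772.16, chr1:212565334-212620777, plus strand), a stress-induced factor, stood at 1.4, 1.58 and 1.29 CPM per kilobase in EW8 with vehicle and at 3.44, 3.47 and 3.25 with doxycycline, a log2 fold change of 1.26 (adjusted p 0.00894, SE 0.36). In TC71 it stood at 1.17, 2.81 and 6.6 with vehicle and at 4.81, 5.19 and 5.01 with doxycycline. The vehicle libraries of TC71 spanned the doxycycline ones, with a coefficient of variation of 79% against 3.82%. The TC71 log2 fold change was 0.51 (95% interval -0.22 to 1.24, adjusted p 0.258), and it was 0.01 without TC71 vehicle replicate 1 and 1.27 (adjusted p 0.000232) without replicate 3.

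JDP2 (ENSG00000140044.12, chr14:75427716-75474111, plus strand), a repressive Jun partner, went from 0.217, 0.377 and 0.236 CPM per kilobase to 1.36, 1.41 and 1.26 in EW8, a log2 fold change of 2.28 (adjusted p 3.13e-05, SE 0.35). In TC71 it stood at 0.585, 1.87 and 2.26 with vehicle and at 2.04, 2.35 and 1.91 with doxycycline. These TC71 groups overlapped, and the log2 fold change of 0.42 (95% interval -0.23 to 1.06, adjusted p 0.297) became -0.06 without TC71 vehicle replicate 1. BATF3 (ENSG00000123685.8, chr1:212686418-212699985, minus strand), best known from dendritic cells, went from 2.62, 2.88 and 2.82 to 4.24, 4.52 and 4.73 in EW8, a log2 fold change of 0.7 (adjusted p 0.000657, SE 0.14) that is under the fold limit. In TC71 it stood at 2.92, 4.37 and 3.58 with vehicle and at 3.49, 3.74 and 4.34 with doxycycline, a log2 fold change of 0.09 (95% interval -0.21 to 0.39, adjusted p 0.665). Its EW8 groups were apart and its TC71 groups overlapped.

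In all, 8 of the 10 genes were called higher with doxycycline in EW8, where 11.4% of all tested genes were, and 5 of 10 in TC71, where 12.3% were. JUN and FOS are among those counted and carry the transgenes, which leaves 6 of 8 and 3 of 8 for the others. None was called lower in either line, against 3.38% and 3.67% of all tested genes, and at an unadjusted p under 0.05 none was lower either, with edgeR. DESeq2 called none lower too. The median log2 fold change over the 10 was 2.21 in EW8 and 0.86 in TC71, beside -0.03 and 0 over all tested genes. In EW8 the vehicle and doxycycline libraries were fully separate, doxycycline higher, for 9 of 10 genes (26.9% of all tested genes), the exception being JUND. In TC71 the same held for 6 of 10 (27.6% of all tested genes).

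On the exon-length scale, the order of the levels was rearranged with doxycycline and became nearly the same in both lines. In EW8 with vehicle the order was JUND, FOS, JUN, JUNB, BATF3, ATF3, FOSL1, FOSL2, JDP2, FOSB. JUN and JUNB overlapped in range, and so did each neighboring pair from FOSL1 to FOSB. In TC71 with vehicle it was JUND, JUNB, JUN, BATF3, FOS, ATF3, FOSL2, JDP2, FOSL1, FOSB, and each neighboring pair from BATF3 to FOSL1 overlapped. With doxycycline both lines had FOS, JUN, FOSL1, JUND, JUNB and FOSL2 as the top 6 in that order, with JDP2 and FOSB at the end. BATF3 and ATF3 were the only genes to swap places between the lines, and no neighboring pair overlapped in range in either line. Places in the order depend on the length used. With vehicle, per coding length, ATF3, JUN, JDP2 and FOS had ranks 3, 5, 6 and 8 in TC71, in place of 6, 3, 8 and 5. In EW8 with vehicle JUNB had rank 6 per coding length, in place of 4. With doxycycline BATF3 lay above ATF3 in both lines per canonical transcript length. JUND with vehicle, and FOS and JUN with doxycycline, kept the top places under every length tried. FOSL1 and FOSL2 also moved with doxycycline. Per coding length FOSL2 had rank 4 in EW8 and rank 3 in TC71 with doxycycline, and in CPM without a length it had rank 3 in both, at 112 and 134, above FOSL1 at 98.7 and 82.4.

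Summed levels show how far the supply of Fos and Jun transcripts shifted. The Fos pool (FOS, FOSB, FOSL1 and FOSL2) went from 12.3 ± 0.11 to 401 ± 24.9 CPM per kilobase in EW8 and from 6.82 ± 0.199 to 551 ± 40.6 in TC71 (SD, n = 3), which is 32.6-fold and 80.8-fold. The Jun pool (JUN, JUNB and JUND) went from 50.9 ± 3.88 to 201 ± 18.7 in EW8 and from 59.1 ± 13.1 to 267 ± 16.1 in TC71, which is 3.95-fold and 4.52-fold. For both pools, no vehicle library reached the lowest doxycycline library. Pools, shares and ratios were not tested, since 3 against 3 libraries cannot give a two-sided permutation p under 0.1.

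Without FOS, and so without the transgene, the Fos pool still went from 0.922 ± 0.155 to 68.3 ± 3.85 CPM per kilobase in EW8 and from 3.22 ± 0.331 to 62.7 ± 3.65 in TC71, a ratio of 74.1 and 19.5. Without JUN, the Jun pool had a doxycycline to vehicle ratio of 1.5 in EW8, from 44.8 ± 3.42 to 67.4 ± 6.07, and of 1.01 in TC71, from 53.3 ± 12.3 to 53.6 ± 1.02. The other Fos transcripts were thus many times higher with doxycycline in both lines, whereas the other Jun transcripts were higher in EW8 and overlapped in TC71. In TC71 the Jun pool without JUN ran from 39.2 to 61.9 with vehicle and from 52.6 to 54.6 with doxycycline. Replicate 1 was the low vehicle library, with JUND at 23.7 against 43.4 and 47.8, so the overlap and the ratio of 1.01 depend on it. The partner genes summed to 4.47 ± 0.321 and 9.23 ± 0.18 in EW8 and to 8.72 ± 3.89 and 11 ± 0.537 in TC71.

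The Fos pool was made up differently in the lines with vehicle and much alike with doxycycline. FOS held 92.1%, 93.9% and 91.4% of the EW8 vehicle pool but 49.1%, 55.9% and 53.7% of the TC71 vehicle pool. With doxycycline FOS held 83.8%, 82.9% and 82.2% in EW8 and 88.5%, 88.8% and 88.4% in TC71. The FOS share was therefore lower with doxycycline than with vehicle in EW8 and higher in TC71, with no overlap in either line. FOSL1 held 3.65% ± 1.24 of the pool in EW8 with vehicle and 13% ± 0.613 with doxycycline, and 13.8% ± 2.44 and 7.93% ± 0.205 in TC71. Per coding length the FOSL1 share in TC71 was 7.62% with vehicle and 6.23% with doxycycline, with overlapping ranges. FOSL2 held 2.57% ± 0.0465 and 3.92% ± 0.156 in EW8, and 31.1% ± 5.73 and 3.41% ± 0.26 in TC71. Whether FOS or FOSL2 was the larger part in TC71 with vehicle depends on the length. Per coding length FOS held 35.7% and FOSL2 53.7% there, and from raw counts 39.8% and 51.3%. FOSB held at most 3.41% of the pool in any library and under 0.1% in each doxycycline library.

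With FOS set aside, the FOSL1 share was higher with doxycycline in both lines, whichever of the lengths tried was used. FOSL1 made up 57.9%, 37% and 48.2% of the remaining Fos pool in EW8 with vehicle and 76.2%, 76.9% and 76.5% with doxycycline. In TC71 it made up 23.7%, 28.7% and 35.7% with vehicle and 71.2%, 70.1% and 67.5% with doxycycline. FOSL2 was the larger part of that remainder in TC71 with vehicle, at 73.7%, 66.9% and 56.9%, and stood at 28.2%, 29.4% and 32.1% with doxycycline, although its level rose. Which of the pair was larger with doxycycline depends on the length. Per coding length FOSL1 and FOSL2 held 51% and 48.3% of the remainder in EW8 and 42.2% and 57.1% in TC71. From raw counts FOSL2 was the larger part in both lines, at 52.8% in EW8 and 61.4% in TC71. With vehicle, FOSL1 held 24.4% in EW8 and 12% in TC71 per coding length.

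**Figure D2:**
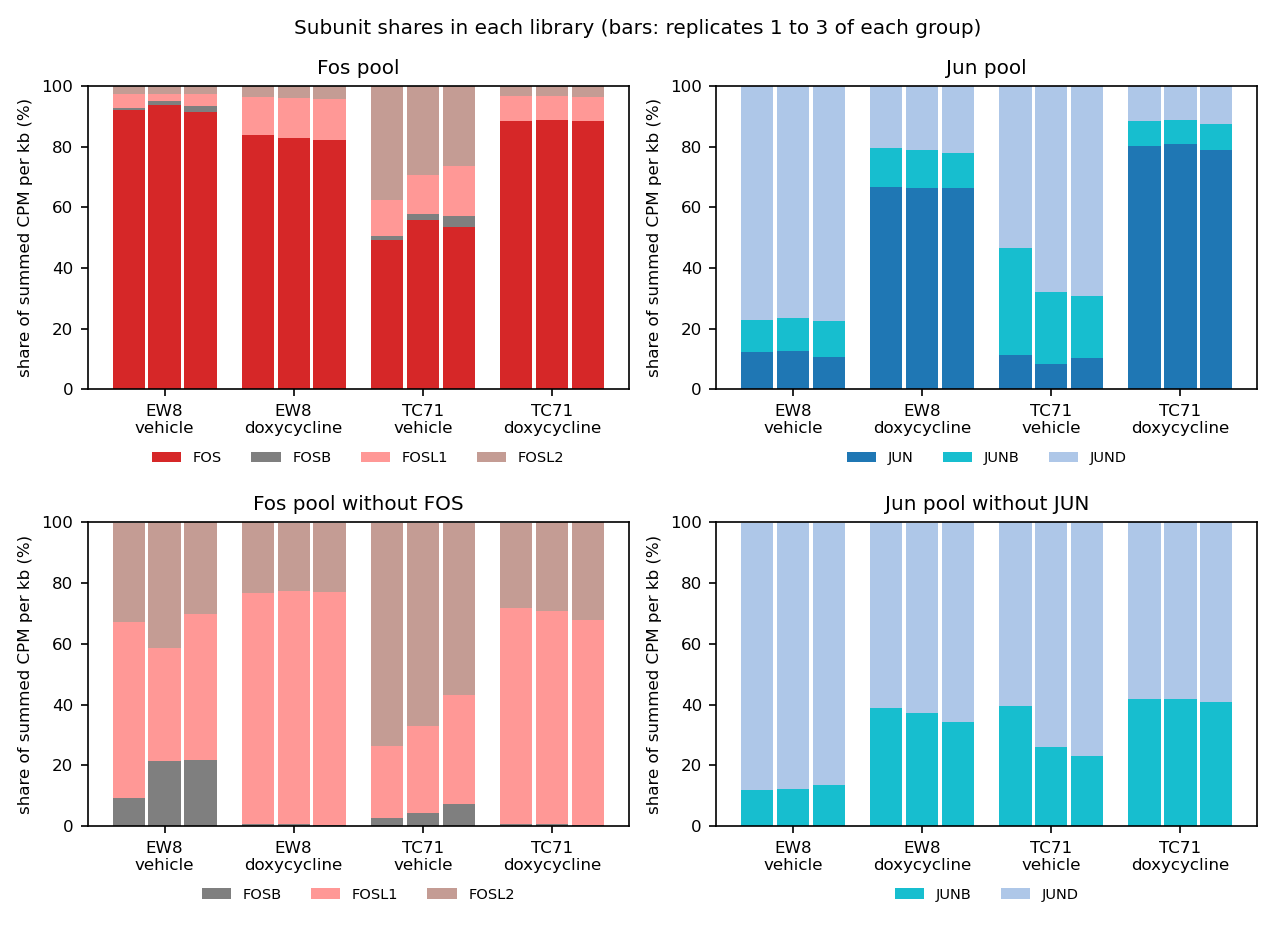
Share of each subunit in the summed CPM per kilobase (%), for the Fos and Jun pools with all subunits (top) and without FOS or JUN (bottom), with a bar for each of the 3 replicates of a group. The FOS share is lowest in the TC71 vehicle libraries, JUND gives way to JUN with doxycycline in both lines, and on this exon-length scale FOSL1 is larger than FOSL2 in all 6 doxycycline libraries, which does not hold from raw counts or, in TC71, per coding length.

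In the Jun pool, JUND was the main transcript with vehicle and JUN the main one with doxycycline. JUN held 12.3%, 12.8% and 10.8% of the pool in EW8 with vehicle and 66.6%, 66.5% and 66.4% with doxycycline. In TC71 it held 11.5%, 8.32% and 10.4% with vehicle and 80.1%, 80.8% and 78.8% with doxycycline. JUND went from 77% ± 0.353 to 21.2% ± 0.89 in EW8 and from 63.4% ± 8.71 to 11.8% ± 0.676 in TC71. Its share was lower while its level was not called changed in either line. JUNB held 11% ± 0.79 and 12.3% ± 0.789 in EW8, and 26.5% ± 7.63 and 8.34% ± 0.314 in TC71. The direction in EW8 depends on the length. Per coding length JUNB held 9.66% with vehicle and 7.26% with doxycycline there, and from raw counts 9.75% and 7.54%.

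With JUN set aside, the balance of JUNB and JUND differed by treatment with no overlap in either line, and by less in TC71. JUNB held 12%, 12.2% and 13.4% of the remainder with vehicle and 39%, 37.1% and 34.1% with doxycycline. In TC71 it held 39.6%, 26.1% and 22.9% with vehicle and 41.8%, 41.8% and 40.9% with doxycycline. The TC71 vehicle value is spread by replicate 1, and without it the mean was 24.5% in place of 29.5%. The JUND share of the full TC71 vehicle pool was 68.4% without that library in place of 63.4%, and the FOS share of the Fos pool 54.8% in place of 52.9%.

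The ratio of the Fos pool to the Jun pool turned over. It was 0.264, 0.228 and 0.234 in EW8 with vehicle and 1.89, 2.02 and 2.09 with doxycycline. In TC71 it was 0.159, 0.104 and 0.098 with vehicle and 2.12, 2.06 and 2 with doxycycline. Jun transcripts exceeded Fos transcripts in all 6 vehicle libraries, and the reverse held in all 6 doxycycline libraries. Its size with vehicle depends on the length used: per coding length the mean was 0.36 in EW8 and 0.262 in TC71, in place of 0.242 and 0.12. The fold between treatments was 5.53 and 7.26 per coding length, in place of 8.26 and 17.1, and the side of 1 on which each library lay stayed as stated under every length tried. Without FOS and JUN the ratio was 0.0207 ± 0.00427 and 1.02 ± 0.0923 in EW8, and 0.064 ± 0.0237 and 1.17 ± 0.0663 in TC71. Its size, too, depends on the length: per coding length it was 0.0529 and 2 in EW8, and 0.21 and 2.53 in TC71. From raw counts the doxycycline values were 1.72 in EW8 and 2.21 in TC71. On each of these scales that ratio was many times higher with doxycycline, with no overlap, although neither transgene enters it.

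FOS and JUN can be compared with what a shared transcript would add, because the construct carries both coding sequences on 1 RNA. Doxycycline added 911 CPM per kilobase of coding sequence to FOS and 454 to JUN in EW8, a ratio of 2.01. In TC71 it added 1372 to FOS and 738 to JUN, a ratio of 1.86. On the exon scale used elsewhere the ratios were 2.52 and 2.33. How much of either increment came from the endogenous gene was not tested.

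The doxycycline responses of 7 of the 10 genes differed between the lines in a test of the difference itself, where 19.3% of all tested genes did (12.2% larger and 7.07% smaller in TC71). Larger responses in TC71 were seen for FOS, by 2.21 on the log2 scale (adjusted p 6.41e-12, SE 0.09), and for JUN, by 0.73 (adjusted p 0.00217, SE 0.15). It was smaller in TC71 for FOSL2 (-2.5, adjusted p 2.9e-09, SE 0.16), JUNB (-1.58, adjusted p 5.2e-07, SE 0.15), JDP2 (-1.86, adjusted p 0.00777, SE 0.46), FOSL1 (-1.31, adjusted p 0.000296, SE 0.22) and BATF3 (-0.61, adjusted p 0.044, SE 0.2). Both genes that carry the transgenes thus differed in one direction and the 5 others in the opposite one. Starting levels enter these values: FOS had a log2 difference between the lines of -1.65 with vehicle and 0.55 with doxycycline. The BATF3 difference was lost in 6 of 19 alternatives, with -0.45 (adjusted p 0.134) without TC71 vehicle replicate 2. For ATF3 and JUND it was -0.75 (adjusted p 0.351) and -0.41 (adjusted p 0.246), and both passed without TC71 vehicle replicate 1, at -1.29 (adjusted p 0.00066) and -0.78 (adjusted p 4.29e-07). Both also passed with no filter on low counts, at -0.76 (adjusted p 0.00131) and -0.42 (adjusted p 0.00221), whereas the ATF3 difference was -0.03 (adjusted p 1) without TC71 vehicle replicate 3. FOSB showed 0.13 (95% interval -0.99 to 1.25, adjusted p 0.926).

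**Figure D3:**
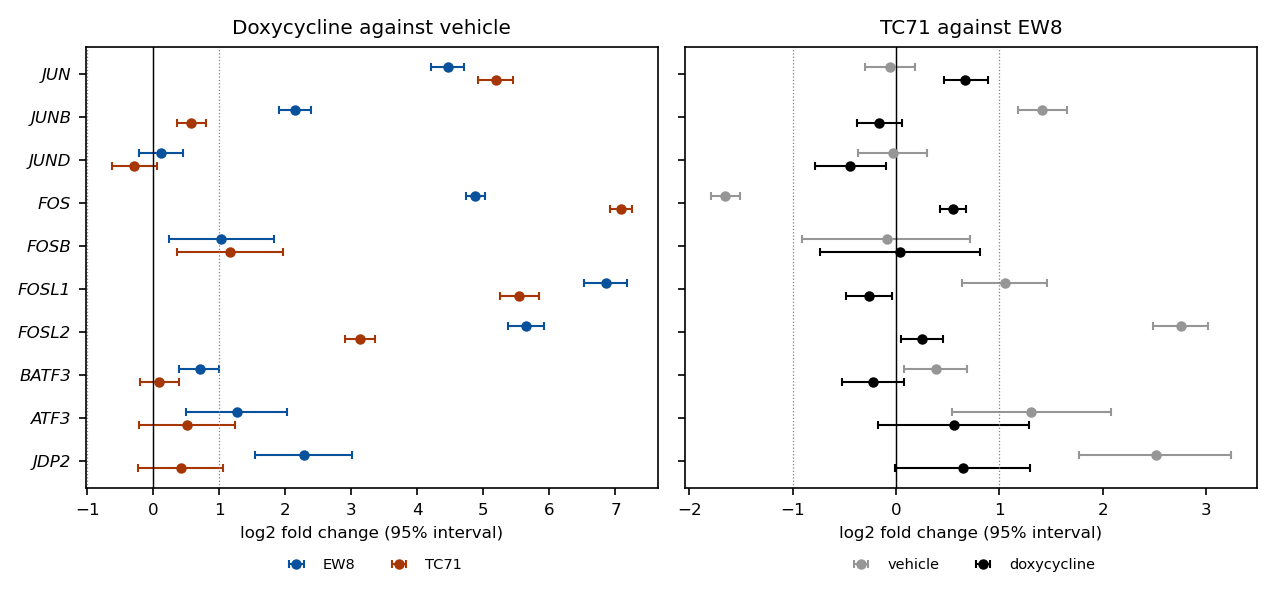
Log2 fold change of each gene with its 95% interval (edgeR, 3 libraries a group), for doxycycline against vehicle in each line (left) and for TC71 against EW8 under each treatment (right), with dotted lines at the fold limit. On the right, vehicle values reach 2.76 while all doxycycline values lie within the fold limit.

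Set against each other directly, the lines differed in 6 of the 10 genes with vehicle and in none past the fold limit with doxycycline. With vehicle, TC71 was higher in FOSL2 (log2 difference 2.76, adjusted p 1.66e-12), JDP2 (2.51, adjusted p 4.9e-06), JUNB (1.41, adjusted p 2.55e-09), ATF3 (1.31, adjusted p 0.00435) and FOSL1 (1.05, adjusted p 0.000126). It was lower in FOS, by -1.65 (adjusted p 2.68e-13). JUN, JUND, FOSB and BATF3 had differences of -0.06, -0.03, -0.09 and 0.39, of which only BATF3 had an adjusted p under 0.05 (0.0271). The background was 30.6% of all tested genes called between the lines with vehicle, 11.6% higher and 18.9% lower in TC71. ATF3 rested on TC71 vehicle replicate 3, without which its difference was 0.53 (adjusted p 0.0647), and FOSL1 fell below the fold limit without the same library (0.94) or without EW8 vehicle replicate 2 (0.81).

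With doxycycline the background was much the same, at 31% of all tested genes called, but 0 of the 10 genes passed. Without the fold limit 5 of 10 had an adjusted p under 0.05, where 62.5% of all tested genes did, and at an unadjusted p under 0.05 the count was also 5. TC71 was higher in JUN by 0.67, FOS by 0.55 and FOSL2 by 0.25 on the log2 scale, and lower in JUND (-0.44) and FOSL1 (-0.26). DESeq2 likewise called 0 of 10 past the fold limit. The median absolute log2 difference between the lines over the 10 genes was 1.18 with vehicle and 0.35 with doxycycline, beside 0.68 and 0.69 over all tested genes. Over the 8 genes without a transgene it was 1.18 and 0.26. Levels were close but not identical: the libraries of the lines did not overlap with doxycycline for 7 of 10 genes. That share is near the 69.6% of all tested genes. With vehicle the libraries of the lines did not overlap for 60% of the 10 genes and 64.7% of all tested genes.

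TC71 vehicle replicate 1 stood apart from its group. Over all tested genes its root mean square deviation from the group mean was 0.43 on the log2 scale, where the other 11 libraries had 0.333 to 0.393. It was the lowest of the 3 TC71 vehicle libraries for 7 of the 10 genes and deviated by -1.25 in ATF3, -1.21 in JDP2 and -0.63 in JUND. FOS in that library deviated by -0.06. Replicate 3 of the same group was the highest for 6 of 10 genes, with 1.24 in ATF3. Over the 10 genes the doxycycline libraries of both lines were tighter, with a root mean square deviation of 0.0743 to 0.154, against 0.207 to 0.635 in the vehicle libraries. Over all tested genes the treatments overlapped, at 0.333 to 0.393 with doxycycline and 0.352 to 0.43 with vehicle.

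**Figure D4:**
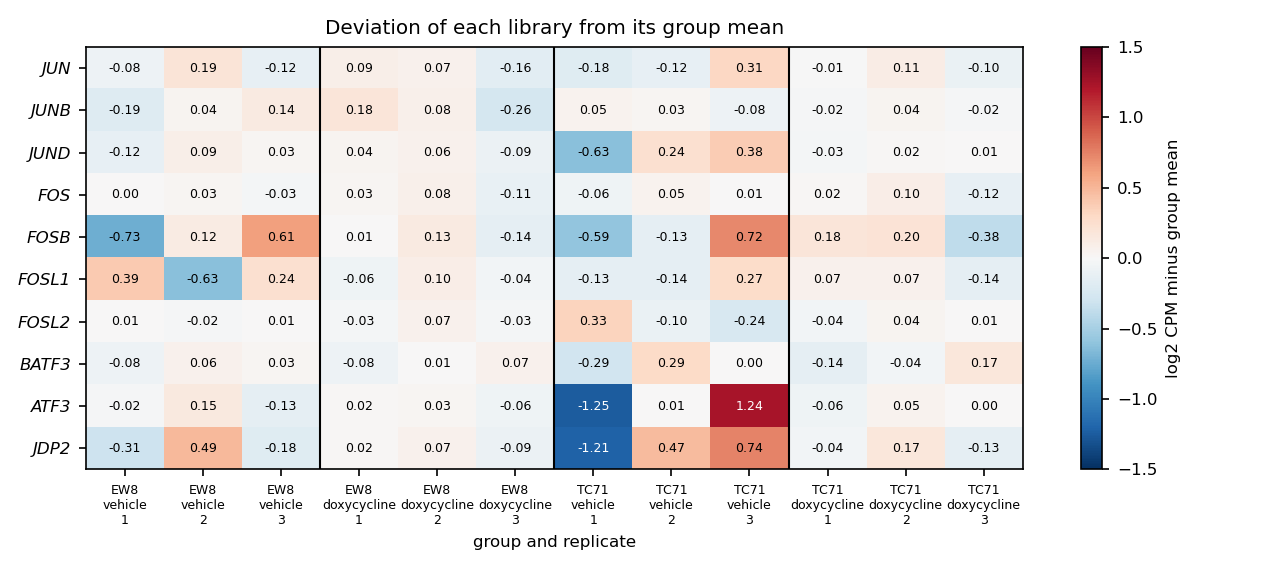
Log2 CPM of each gene in each library minus the mean of its group, with columns for the 12 libraries and black lines between groups. The TC71 vehicle libraries hold the largest deviations, from -1.25 to 1.24, both in ATF3.

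Replicate spread also set how each gene could be read. FOS and FOSL2 in EW8 with vehicle had coefficients of variation of 2.21% and 1.26% over 3 libraries, whereas FOSB had 43.1% and FOSL1 33.6%. FOSL1 had 24 to 53 reads per library there, so its starting level is the least certain part of its fold change. Leaving out EW8 vehicle replicate 2 moved that log2 fold change to 6.62, and leaving out replicate 1 moved it to 7.03.

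Of the other AP-1 partner genes of the basic leucine zipper class, 4 of 11 tested were called higher and 1 lower in EW8, and 2 higher and 1 lower in TC71. Over all tested genes 11.4% were called higher and 3.38% lower in EW8, and 12.3% and 3.67% in TC71, and with 11 genes the TC71 counts lie near that background. MAFF, a small Maf protein, stood at 2.25 ± 0.179 CPM with vehicle and 22.4 ± 1.96 with doxycycline in EW8 (log2 fold change 3.32, adjusted p 1.22e-11), and at 1.71 ± 0.0944 and 2.82 ± 0.623 in TC71 (0.72, adjusted p 0.0024, under the fold limit). BATF2 was called higher in both lines from under 1 CPM, its log2 fold change being 2.83 for EW8 (adjusted p 6.32e-06) and 1.13 for TC71 (adjusted p 0.0401). In TC71 it stayed under 1 CPM with doxycycline, at 0.346 ± 0.0528 against 0.157 ± 0.0399 with vehicle. The TC71 values rest on 6 to 10 reads per library with vehicle and 12 to 16 with doxycycline. CREB5, an ATF2-like factor, rose in EW8 from 6.04 ± 0.997 to 24.9 ± 1.11 CPM, and in TC71 no library had over 4 reads of it. MAFA, a large Maf protein, fell in TC71 from 4.74 ± 0.37 to 0.491 ± 0.134 CPM (log2 fold change -3.27, adjusted p 8.35e-11), and its EW8 value was -0.54. The list had a median log2 fold change of 0.2 in EW8 and 0 in TC71.

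Beside the same background shares, the counts over 3 lists of genes that act on AP-1 are small and are given as descriptions. Among 15 kinases of the MAP kinase cascades, 2 were called higher in EW8 and 2 higher and 1 lower in TC71, with medians of -0.09 and 0.18. RPS6KA3, a kinase downstream of ERK, rose in both lines, by 1.48 (EW8, adjusted p 1.31e-11) and 1.88 (TC71, adjusted p 3.28e-13), and MAP2K1, which codes for MEK1, by 1.2 (adjusted p 1.07e-10) and 1.02 (adjusted p 8.9e-10). MAP3K5, a stress kinase, fell in TC71 by 1.05 (adjusted p 6.85e-06). Of 10 transcription factors known to act on the FOS and JUN promoters, 1 was called higher in EW8 and 3 in TC71. ELK3, a partner of serum response factor, rose by 2.26 in EW8 and 1.35 in TC71, and MEF2C (1.16) and MRTFA (1.01) passed in TC71. Of 9 ubiquitin ligase components and modifiers of Jun and Fos proteins, only DET1 was called, lower in EW8 on 0 to 44 reads per library (log2 fold change -1.98, adjusted p 0.037).

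Of 15 widely used AP-1 target genes, 13 were called higher in EW8 and 11 in TC71, none lower, beside the background of 11.4% and 12.3% higher. The list's median log2 fold change was 4.19 in EW8 (4.15 when genes at the counting floor take their bound) and 4.12 in TC71 (also 4.12), beside -0.03 and 0 over all tested genes. Where the vehicle libraries held at most 6 counts, which is 3 read pairs, folds are bounds against 6 counts per library and cover counting error only. CXCL8, a chemokine, reached 805 ± 75 CPM in EW8, at least 6457-fold higher than with vehicle, and 2.48 ± 0.195 CPM in TC71, at least 22.7-fold higher. MMP1, a collagenase, rose from 0.419 ± 0.111 to 60.6 ± 3.68 CPM in EW8 and from 0.139 ± 0.0995 to 943 ± 35.1 CPM in TC71. MMP3, a stromelysin, reached 1.39 ± 0.164 CPM in EW8 (at least 11.1-fold higher) and 22.9 ± 3.79 CPM in TC71 (at least 209.9-fold higher). CD44, a cell surface adhesion receptor, reached 10.9 ± 0.437 CPM in EW8 (at least 87.8-fold higher) and stood at 0.0429 ± 0.0744 and 39.8 ± 2.16 CPM in TC71. Among CXCL8, MMP1, MMP3 and CD44, the highest with doxycycline was CXCL8 in EW8 and MMP1 in TC71.

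Some of the 10 genes are neighbors. FOS and JDP2 lie 145.5 kb apart on chromosome 14 (hg38), with BATF another 48.3 kb from JDP2, and ATF3 and BATF3 lie 65.6 kb apart on chromosome 1. BATF had 0 reads in all vehicle libraries and in all TC71 doxycycline libraries, and 6 to 12 reads in the EW8 doxycycline libraries. JDP2 rose in EW8, as the FOS counts did, and did not pass in TC71, where the FOS counts rose most. Those FOS counts include transgene reads, and how much of their rise came from the chromosome 14 gene was not tested. ATF3 was called in EW8 and BATF3 was under the fold limit there, and neither was called in TC71.

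The genes whose pattern over the 12 libraries was most like that of each AP-1 gene were found by the root mean square difference of log2 CPM, with each gene centred on its own mean. Nearest to JUN were ELAPOR1 (0.27) and RNASE1 (0.336), and nearest to FOS were PRSS23 (0.278) and ENSG00000253746 (0.408). FOSL1 had LINC02535 (0.475) and GBP2 (0.509), and FOSL2 had COL4A6 (0.418) and AHNAK (0.45). For JUNB they were TRIM14 (0.145) and IGF1R (0.158), for JUND OLMALINC (0.113) and SNRPN (0.149), and for FOSB EVA1B (0.321) and HPCAL1 (0.325). BATF3 had F8 (0.116) and UBE2Z (0.134), ATF3 had ARHGEF40 (0.406) and VEGFA (0.41), and JDP2 had TRIM9 (0.349) and ENSG00000255495 (0.424). Genes that vary little find close matches easily, so these distances do not rank the 10 genes. Among themselves the nearest pair was JUND and BATF3 (0.336), then ATF3 and JDP2 (0.568), while JUN and FOS were 0.812 apart.

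As a check of the labels, all 8 markers of Ewing sarcoma cells, among them CD99, NKX2-2 and NR0B1, were at 1 CPM or more in every group, and their sum ran from 1021 to 1731 CPM per library. CD99, the largest part of that sum, went from 807 to 1243 CPM with doxycycline in EW8 and from 558 to 759.6 in TC71. PAX7 fell from 106 to 44.4 CPM in EW8 and from 106 to 43.8 in TC71. At an adjusted p under 0.05 (edgeR, no fold limit), 5 markers were lower and 1 higher in EW8, and 4 lower and 2 higher in TC71. Past the fold limit, 2 were lower in EW8 and 1 in TC71, beside 3.38% and 3.67% of all tested genes. Some genes that mark other cell types were present too. Here, too, markers counted at 1 CPM are those whose group mean reached it, while sums are per library. Of 4 leukocyte markers, 2 were at 1 CPM or more in EW8 under both treatments (sum 64.9 to 80.2 CPM, nearly all PTPRC) and none in TC71 (0.0776 to 0.43 CPM), and CD3E was at or near 0 in every group. Of 3 endothelial markers, 1 reached 1 CPM in EW8 with vehicle and 2 with doxycycline (7.22 to 8.48 and 36.1 to 43.7 CPM), against none and 1 in TC71 (0 to 0.0388 and 3.75 to 4.61 CPM). Neither of 2 epithelial markers had a group mean of 1 CPM in EW8 or in TC71 with vehicle, where EPCAM had at most 1.19 CPM in a library. EPCAM alone reached that mean in TC71 with doxycycline (sum 11.3 to 12.6 CPM), with CDH1 near 0. Their part in the AP-1 values was not tested.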

How the data were processed

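RNA-seq was made from polyadenylated RNA of 12 samples, 3 for each combination of line and treatment. The authors deposited whole-number read counts per gene from featureCounts 2.0.1 on GENCODE release 29 exons (GRCh38). Per the file headers, mates were counted singly, strand was not used, and reads on several places or genes were left out. Symbols were matched by gene identifier from a reference table of gene names, for 99.1% of 58721 genes. Coding and canonical lengths came from GENCODE release 44. The deposited exon length, another value in the table, gave CPM per kilobase. Counts were tested with edgeR 4.0.16 in R 4.3.3 (limma 3.58.1): filterByExpr, TMM, a quasi-likelihood fit of 4 groups, Benjamini-Hochberg over 21013 genes. The script was tested on simulated data. The alternatives were DESeq2 1.42.0, other scalings, filters, fits and lengths, and leaving out each library. The lists, the AP-1 genes and the tests were chosen with earlier results of these data known. Named genes were the 10 AP-1 genes, up to 4 called genes of each list with the largest change, the 2 genes most alike to each AP-1 gene, and members or BATF within 1 Mb. CCND1 was named in addition, as a target gene that was lower in both lines. Shares are of summed CPM per kilobase. Depth limits the precision of genes with few reads, and floors cover counting error only, while the 95% intervals of fold changes come from the edgeR fit and include the spread between libraries. Promoters are from RefSeq (GRCh38.p14). No protein sequence was used here.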

Additional observations from a re-analysis of the deposited data

Results flagged for a closer look

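In 7 of the 10 genes the doxycycline response differed between the lines by edgeR's test of the difference, TC71 minus EW8 on the log2 scale. FOS (2.21) and JUN (0.73), whose counts include the transgenes, responded more in TC71. JUNB (-1.58), FOSL1 (-1.31), FOSL2 (-2.5), JDP2 (-1.86) and BATF3 (-0.61) responded less in TC71. JUNB, FOSL1, FOSL2, JDP2 and BATF3 also had the higher vehicle level in TC71, by 1.41, 1.05, 2.76, 2.51 and 0.39, and this starting level enters both values. FOS had the lower vehicle level in TC71. Its log2 difference between the lines was -1.65 with vehicle and 0.55 with doxycycline, so its starting level enters too. For JUN the values were -0.06 and 0.67. The cause of the differences was not tested.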

How the results depend on the processing

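Of the 8 genes called in EW8, 7 (JUN, JUNB, FOS, FOSL1, FOSL2, ATF3 and JDP2) kept their direction and call under all 21 alternatives, as did JUN, FOS, FOSL1 and FOSL2 in TC71. With at least 10 counts in every library, fewer genes could be tested and the genes called were 1600 (EW8 response), 1909 (TC71 response), 3566 (lines with vehicle) and 3464 (lines with doxycycline). Without the fold limit they were 9216, 9578, 12974 and 13135, and 5 of the 10 AP-1 genes passed between the lines with doxycycline. Leaving out each library in turn gave 2945 to 3364 genes and 7 to 8 of the 10 in EW8, 3288 to 3433 and 4 to 6 in TC71, 3166 to 5166 and 6 to 9 for the difference of responses, 6308 to 6624 and 4 to 6 between the lines with vehicle, and 6332 to 6841 and 0 with doxycycline.

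Shares depend on the length used. With coding length the FOS share was 88.4% (EW8 vehicle), 79.9% (EW8 doxycycline), 35.7% (TC71 vehicle) and 85.2% (TC71 doxycycline), and the JUN share 21.3%, 79.9%, 18.3% and 88.9% in the same order. With canonical transcript length the FOS shares were 94.2%, 87.2%, 61.1% and 91.6%, and JUN held 13.2% and 68.8% in EW8 and 81.5% in TC71 with doxycycline. From raw read counts FOS held 90.2% in EW8 with vehicle, 39.8% in TC71 with vehicle and 87.9% in TC71 with doxycycline, and JUN 20.6%, 79.2%, 17.6% and 88.4%. The ratio of Fos to Jun was 0.36, 0.262 and 1.9 (EW8 vehicle, TC71 vehicle, TC71 doxycycline) with coding length, 0.39, 2.16 and 0.26 (EW8 vehicle, EW8 doxycycline, TC71 vehicle) from raw counts, and 0.371, 2.79, 0.162 and 2.88 with canonical length. Both GENCODE lengths were chosen after seeing the data, and the planned protein-based length was not run.

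The values that changed sign were all of genes not called. Other scalings or the stricter filter gave BATF3 -0.003 (TC71 response), FOSB -0.01 and -0.02 (lines with doxycycline) and JUND 0.01 and 0.02 (lines with vehicle). Leaving out a library gave -0.12 to 0.25 for BATF3 and -0.06 to 0.71 for JDP2 (TC71 response), -0.32 to 0.48 for FOSB (difference), -0.20 to 0.14 for JUN, -0.19 to 0.33 for JUND and -0.50 to 0.30 for FOSB (lines with vehicle), and -0.10 to 0.20 for FOSB (lines with doxycycline). The cause was not tested.

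Deviations of same-numbered vehicle and doxycycline libraries correlated at -0.03 to 0.01, and those of differently numbered ones at -0.03 to 0.05. With 3 libraries a group, values near 0 give no sign of pairing by number but cannot exclude it. With the replicate number as a block, 2968 genes were called in EW8 and 3220 in TC71, FOSB in EW8 (log2 fold change 1.11, adjusted p 0.0522) lost its call and no other AP-1 gene did. Depth limits FOSB most, with 22 to 102 reads per library.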
